A study of Mus musculus with 4 samples.

Results

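The genes described here are 46 genes of mitosis and the spindle, taken by symbol from the 22609 genes counted in each library. They cover mitotic kinases and cyclins, the spindle checkpoint, the kinetochore, spindle motors and cytokinesis. All 46 were found in the count tables, and all 46 were among the 13638 genes that had at least 20 counts in at least 1 of the 4 libraries. They were chosen by name and function, not by a threshold on measured values.

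RNA was sequenced from mammospheres, floating colonies grown without attachment, which had been cultured for 7 days from FACS-sorted basal cells of the Balb/C mouse mammary gland. In the control group the mice were gavaged with sesame oil daily from day 21 for 3 weeks. In the BPA group they received bisphenol A, an estrogenic plastics monomer, at 25 µg/kg/day over the same weeks. The DMBA group had the oil and then, at 2 months of age, 1 gavage of the carcinogen 7,12-dimethylbenz[a]anthracene at 30 mg/kg, and the BPA+DMBA group had the BPA followed by the same DMBA dose. All mice were kept on a low-phytoestrogen diet after puberty and their glands were taken at 4 months, and all spheres grew in the same medium, which held EGF and bFGF at 20 ng/mL each, insulin at 10 µg/mL and the steroid hydrocortisone at 1 µg/mL. Each group was 1 library from the pooled spheres of 5 animals, so the animals within a group were not measured apart.

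Cells enter mitosis when Cdk1, bound to cyclins A and B, phosphorylates the proteins that condense chromosomes and build the spindle. The spindle checkpoint then holds the anaphase-promoting complex (APC/C) inactive until every kinetochore is attached, after which securin and cyclin B are destroyed, the sister chromatids part and the cell divides at the midzone. Most of these genes are transcribed late in the cell cycle, in G2 and mitosis, from promoters that carry a CHR (cell cycle genes homology region), the element read by the DREAM and MuvB complexes, next to CCAAT boxes bound by the factor NF-Y. Growth of mammary epithelium, including colonies raised from basal cells, requires such divisions.

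Promoter stretches of 7 genes are printed first because most of them show elements common in the group. They come from RefSeq on build GRCm38.p6 and run 5′ to 3′ on the gene's strand, from 100 bases before to 30 bases after the annotated start. Capitals mark CHR words (TTTGAA or TTCGAA) and CCAAT words, each on either strand. The first 4 were taken in order of their DMBA change among genes that had both words, and the last 3 were chosen after their words were seen.
Plk1, chr7:122159335-122159464, plus strand: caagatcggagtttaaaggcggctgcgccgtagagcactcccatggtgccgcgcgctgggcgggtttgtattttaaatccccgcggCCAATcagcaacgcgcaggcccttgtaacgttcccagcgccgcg
Cenpa, chr5:30666786-30666915, plus strand: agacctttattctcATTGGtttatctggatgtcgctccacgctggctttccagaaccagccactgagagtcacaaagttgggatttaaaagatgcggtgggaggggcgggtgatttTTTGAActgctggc
Ttk, chr9:83834589-83834718, plus strand: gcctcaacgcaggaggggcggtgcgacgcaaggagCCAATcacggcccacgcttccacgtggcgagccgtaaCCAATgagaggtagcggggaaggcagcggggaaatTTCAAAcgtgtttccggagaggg
Ube2c, chr2:164769829-164769958, plus strand: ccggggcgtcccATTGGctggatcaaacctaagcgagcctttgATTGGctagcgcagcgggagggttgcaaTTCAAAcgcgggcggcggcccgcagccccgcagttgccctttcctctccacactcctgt
Cdk1, chr10:69352883-69353012, minus strand: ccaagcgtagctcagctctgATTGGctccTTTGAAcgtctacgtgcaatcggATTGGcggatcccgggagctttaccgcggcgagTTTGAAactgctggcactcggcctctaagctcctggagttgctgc
Cdc20, chr4:118437314-118437443, minus strand: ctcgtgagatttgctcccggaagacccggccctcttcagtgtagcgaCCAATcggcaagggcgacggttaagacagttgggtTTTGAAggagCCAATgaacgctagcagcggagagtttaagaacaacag
Birc5, chr11:117849137-117849266, plus strand: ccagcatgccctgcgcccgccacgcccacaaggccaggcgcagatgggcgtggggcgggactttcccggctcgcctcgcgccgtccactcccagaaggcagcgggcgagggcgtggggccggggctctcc

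In the stretches of Cenpa, Ttk and Cdk1 a CHR word lies close to the start, with CCAAT words on its upstream side. In Cdc20 it lies between a pair of CCAAT words. Plk1 shows a CCAAT word alone because its CHR word begins 31 bases after the start, just outside the printed stretch, and Birc5 shows neither word. Promoters were matched for 38 of the 46 genes, and Spc24, Aurkb, Cdc25c, Incenp, Kif20a, Ccna2, Foxm1 and Tpx2 were not matched. Over the whole window, 250 bases before to 50 after the start, 29 of the 38 held a CHR word (76.3%), against 13.4% of the 9614 matched promoters of kept genes and 19.4% of all 27025 promoters. A CCAAT word was present in 28 of the 38 (73.7%, against 38.6% of kept genes and 37.9% of all promoters), and 25 held both words (65.8%, against 5.72% and 7.70%). The CHR word began within 50 bases of the start in 27 of the 38 promoters (71.1%), against 3.39% of kept genes and 5.29% of all promoters.

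E2F words, the sites tied to genes of DNA synthesis, were rare in these promoters. The 8-letter words searched on both strands were TTTGGCGC, TTTCCCGC, TTTCGCGC and TTTGCCGC, and 2 of the 38 held one, in Cdk1 and Kif18a (5.26%, against 4.06% of kept genes and 2.32% of all promoters). Of 35 promoters of DNA replication genes, 31.4% held an E2F word, 17.1% a CHR word and 62.9% a CCAAT word. Their CHR share was near that of kept genes (13.4%) and of all promoters (19.4%). A word is a match of letters and does not show that a factor binds there.

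**Figure D1:**
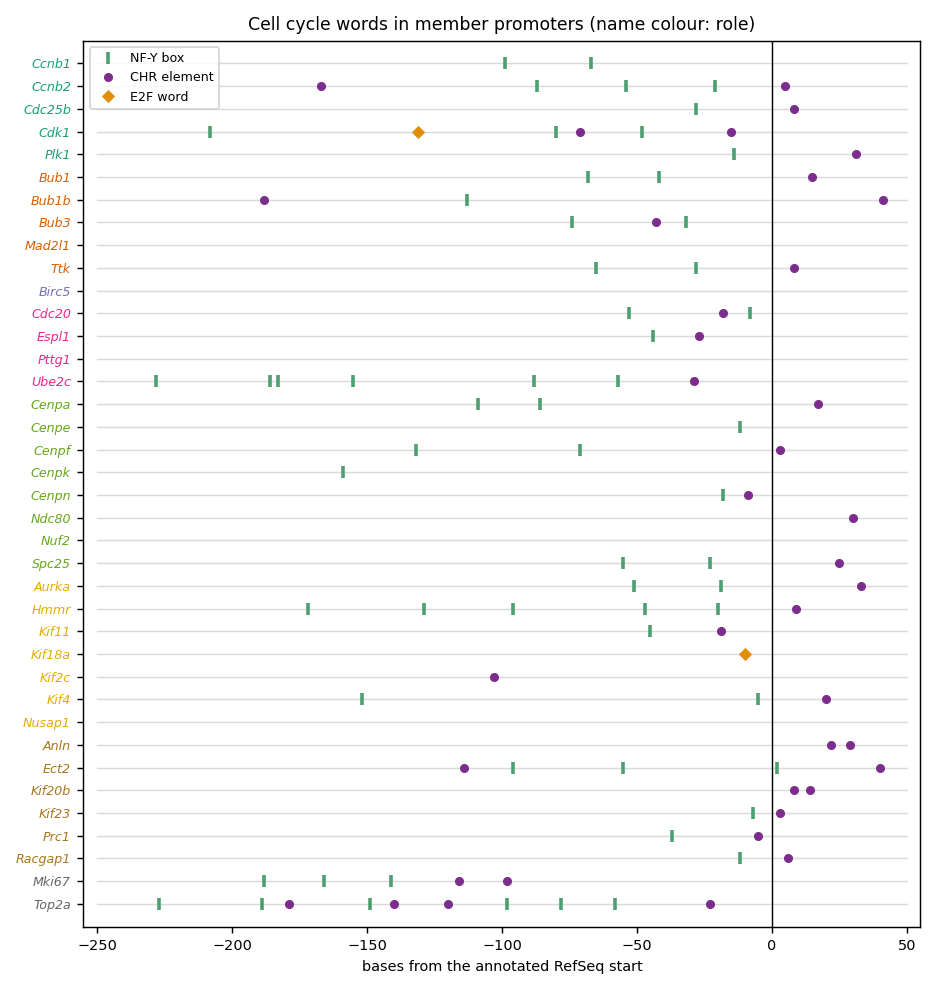
Positions of CHR elements, NF-Y boxes (CCAAT words) and E2F words in the promoters of the 38 matched genes, one line per gene, with the x axis in bases from the annotated start. CHR elements gather around the start in 27 genes and NF-Y boxes lie mostly upstream of them; Mad2l1, Birc5, Pttg1, Nuf2 and Nusap1 show none of the words.

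DMBA exposure of the mice was followed by higher RNA of nearly the whole group. The effect of each exposure was estimated in an additive model of BPA and DMBA over the 4 libraries by edgeR's quasi-likelihood test, with adjustment over all 13638 genes. The spread in that test has 1 residual degree of freedom per gene, the BPA by DMBA interaction, because no group was replicated. The fit draws each gene's spread toward that of all genes, so the p-values also rest on the other genes. In it 39 of the 46 genes rose with DMBA and 0 fell, while 6.67% of all tested genes rose and 7.72% fell. The log2 change was above 0 in all 46, with a median of 0.72 and a range from 0.25 (Bub3) to 1.06 (Ndc80), beside a median of -0.00 over all genes. The adjusted p-value of 6 of the 7 genes that missed the threshold of 0.05 lay between 0.05 and 0.1. In bulk RNA more dividing cells and more RNA per cell cannot be told apart.

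The summed level of the 46 genes in control was 1217 CPM (counts scaled to library size). BPA had 1368, DMBA 2031 and BPA+DMBA 1865 CPM. The sum was 1.67-fold that of control in the DMBA library and 1.36-fold that of BPA in the BPA+DMBA library. Both DMBA libraries lay above both libraries without DMBA for 45 of the 46 genes, against 31.7% of all genes, the exception being Cenpk. The DMBA library was the highest of the 4 for 42 genes, and BPA+DMBA was the highest for Bub1, Incenp, Foxm1 and Racgap1. Control was the lowest for 42 genes, and BPA was the lowest for Ccnb1, Mad2l1, Ndc80 and Spc24. The highest and lowest libraries were not counted over all genes.

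**Figure D2:**
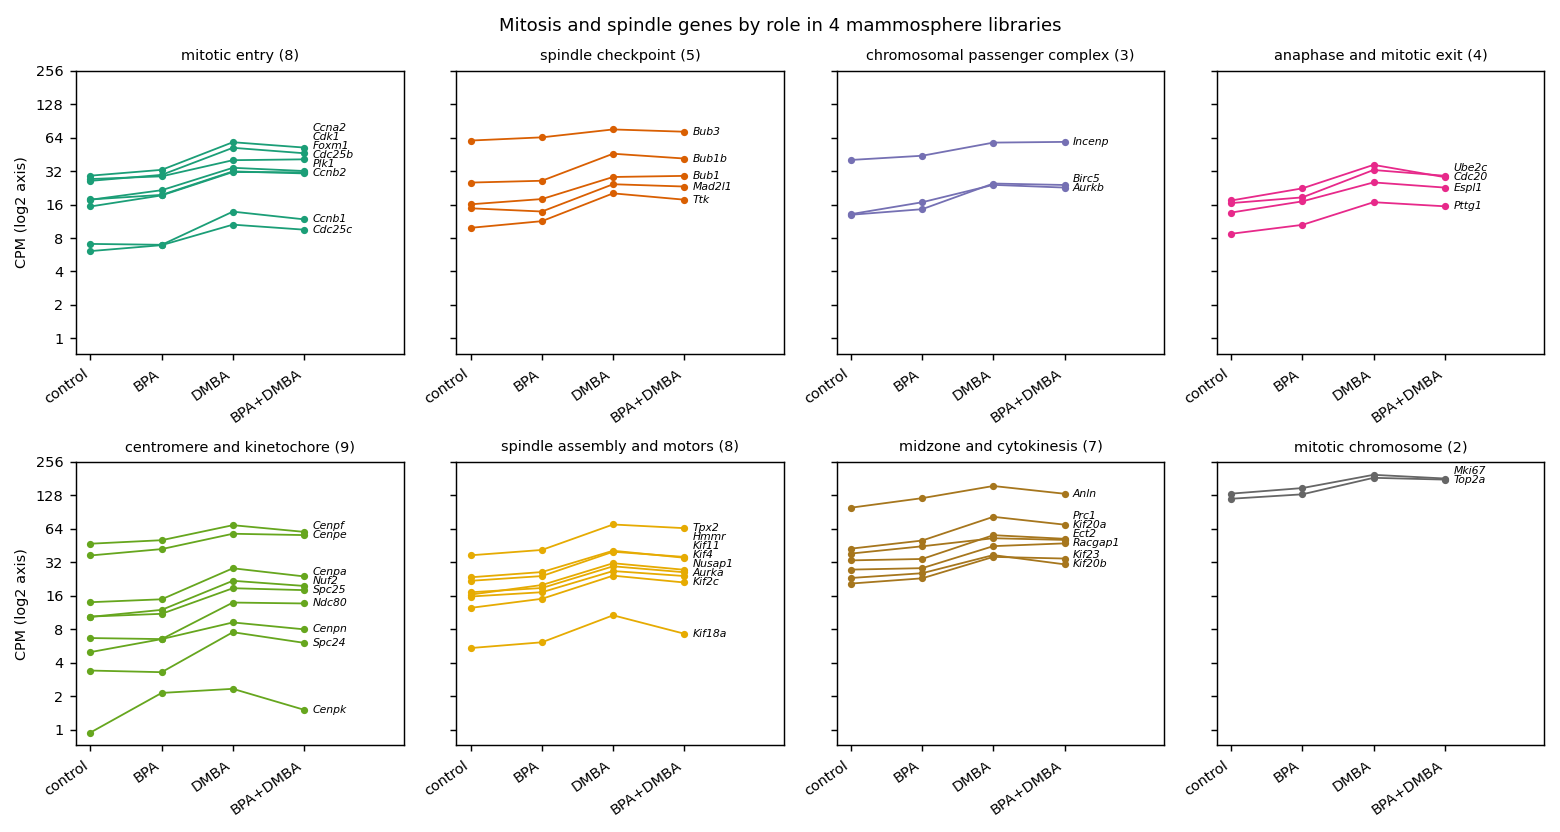
CPM on a log2 axis for each of the 46 genes in the 4 libraries, in panels by role; each line is 1 gene and each point 1 library. In all 8 panels the lines step up from the libraries without DMBA to those with it, and Cenpk alone falls back below its BPA level in BPA+DMBA.

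Of the 8 genes of mitotic entry 7 rose, and the median log2 change of the 8 was 0.80. Cdk1, the kinase that starts mitosis, stood at 26.1 CPM in control, 29.6 with BPA, 51.8 with DMBA and 46.3 with both. Both DMBA libraries were clear of the others, and the log2 change was 0.82 ± 0.11 (SE, adjusted p = 0.0094). The SE, here and below, is the log2 change divided by the square root of the test's F statistic, not a spread over replicates. Ccnb1, cyclin B1, was at 7.08 CPM in control and 6.95 in BPA against 13.8 in DMBA and 11.8 in BPA+DMBA, and rose by 0.87 ± 0.15 (adjusted p = 0.017). Its processed pseudogene Ccnb1-ps matches it at 99.2% of bases, so how its reads were assigned, and its level, are uncertain. Ccna2, cyclin A2, rose by 0.84 and Ccnb2, cyclin B2, by 0.74 on the log2 scale.

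Plk1, a kinase that activates Cdk1 and matures the spindle poles, measured 15.4 CPM in control, 19.3 with BPA, 31.4 with DMBA and 31.2 with both. The DMBA libraries differed by less than its counting error, and its log2 change was 0.86 ± 0.12 (adjusted p = 0.010). Foxm1, a transcription factor that works with MuvB on these promoters, had 27.1 CPM in control and 28.7 in BPA against 40.1 in DMBA and 40.8 in BPA+DMBA. Its change of 0.54 was the smallest of this role. Of the phosphatases that activate Cdk1, Cdc25b rose by 0.77, while Cdc25c, with 6.10 to 10.5 CPM across the libraries, had a change of 0.64 and missed the threshold (adjusted p = 0.054).

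Of the 5 spindle checkpoint genes 4 rose. Bub1b, which encodes the checkpoint protein BubR1, was at 25.2 CPM in control, 26.2 with BPA, 45.8 with DMBA and 41.5 with both (log2 change 0.77 ± 0.10, adjusted p = 0.0078). Bub1, a kinase at the kinetochore, had 16.1, 17.9, 28.3 and 29.0 CPM in the same order of libraries. Mad2l1, which encodes the Mad2 inhibitor of Cdc20, had 14.8, 13.8, 24.4 and 23.2 CPM. Both of these genes rose, by 0.76 for Bub1 and 0.73 for Mad2l1, and the checkpoint kinase Ttk rose by 0.85. Bub3, a WD-repeat protein that brings Bub1 to kinetochores, had the smallest DMBA change of the 46 genes. Its level was 60.2 CPM in control and 64.3 in BPA against 75.8 in DMBA and 72.3 in BPA+DMBA, a log2 change of 0.25 that did not pass (adjusted p = 0.084).

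All 3 genes of the chromosomal passenger complex, which corrects faulty attachments and later directs cytokinesis, rose. Aurkb, its kinase, measured 13.1 CPM in control, 16.8 with BPA, 24.0 with DMBA and 22.7 with both, a change of 0.66 (adjusted p = 0.028). Birc5, which encodes survivin, measured 12.9, 14.5, 24.7 and 24.0 CPM in the same order, a change of 0.83 (adjusted p = 0.011). The scaffold Incenp had a smaller change of 0.47 (adjusted p = 0.018). All 4 genes of anaphase and mitotic exit also rose, by 0.82 for Ube2c, the ubiquitin-conjugating enzyme of the APC/C, 0.76 for Pttg1 (securin), 0.71 for Cdc20 and 0.67 for Espl1 (separase). Cdc20, the activator of the APC/C, stood at 17.4 CPM in control and 22.4 in BPA against 36.4 in DMBA and 28.2 in BPA+DMBA. Its DMBA libraries differed more from each other than those of most of the 46 genes, and its adjusted p of 0.042 was close to the threshold.

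The 3 largest DMBA changes were in subunits of the NDC80 complex, the 4-subunit rod that binds microtubules at the kinetochore. Ndc80 measured 6.67 CPM in control, 6.53 with BPA, 13.9 with DMBA and 13.7 with both. BPA made less difference to it than its counting error in either pair, and its log2 change of 1.06 ± 0.14 was the highest of the 46 (adjusted p = 0.010). Spc24 was lower in level, at 3.40, 3.29, 7.53 and 6.04 CPM in the same order, and rose by 1.02 ± 0.20 (adjusted p = 0.025). Nuf2 had 10.3, 12.0, 21.8 and 19.6 CPM and rose by 0.91 ± 0.14 (adjusted p = 0.012). The last subunit, Spc25, rose by 0.78.

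Cenpa, the histone H3 variant that marks centromeres, stood at 14.0 CPM in control and 14.9 in BPA against 28.3 in DMBA and 23.9 in BPA+DMBA and rose by 0.86 ± 0.12 (adjusted p = 0.011). The large kinetochore proteins changed less, by 0.54 for Cenpe, a kinesin, and by 0.41 for Cenpf, which had 47.1, 50.6, 69.1 and 60.2 CPM. The 2 subunits of the constitutive centromere network, Cenpk and Cenpn, did not pass. Cenpn had a log2 change of 0.61 (adjusted p = 0.099). Cenpk was counted 28 times in control, 41 with BPA, 65 with DMBA and 24 with both, and its groups overlap, since BPA+DMBA was below BPA. Its fitted change was 0.46 ± 0.46 (adjusted p = 0.54).

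Among the 8 genes of spindle assembly 7 rose, within a narrow range from 0.62 for Kif11 to 0.79 for Tpx2, the factor that activates Aurora A on microtubules. Aurka, the Aurora A kinase of the spindle poles, measured 15.8 CPM in control, 17.2 with BPA, 26.7 with DMBA and 24.1 with both. Kif11, the motor that slides the spindle poles apart, measured 23.5, 26.2, 40.7 and 35.2 CPM. Both were highest in DMBA, and they rose by log2 changes of 0.63 for Aurka and 0.62 for Kif11, close to the median of the role, 0.68. Kif18a, a motor that dampens chromosome movements, had 5.43 CPM in control and 6.11 in BPA against 10.7 in DMBA and 7.30 in BPA+DMBA. Its groups did not overlap, but the gap between the DMBA libraries was wide and its change of 0.65 missed the threshold (adjusted p = 0.098).

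Of the 7 genes of the midzone and cytokinesis 5 rose. Prc1, which bundles the midzone microtubules, was at 42.5 CPM in control, 50.3 with BPA, 82.2 with DMBA and 69.9 with both, a change of 0.72 (adjusted p = 0.015). Kif20a, a midzone kinesin, measured 33.3, 34.3, 56.2 and 52.1 CPM and rose by 0.68 (adjusted p = 0.0083). Kif20a shares 29.3% of its exon bases with Cdc23 on the opposite strand, and how strand was treated in counting is not given. Racgap1, the partner of Kif23 in the centralspindlin complex, had 27.5, 28.4, 44.8 and 47.4 CPM. It was one of the 4 genes highest in BPA+DMBA and rose by 0.72 (adjusted p = 0.0069).

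The 2 genes of this role that did not pass act at the cell cortex. Anln, an actin-binding scaffold of the contractile ring, had 99.3 CPM in control and 121 in BPA against 156 in DMBA and 133 in BPA+DMBA (change 0.39, adjusted p = 0.081). Ect2, the exchange factor that activates RhoA there, had 38.4, 44.6, 52.7 and 50.9 CPM (change 0.33, adjusted p = 0.070). In both the BPA library was already above control, and both DMBA libraries were higher still. Kif20b rose by 0.48, with an adjusted p of 0.048.

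The remaining genes act on mitotic chromosomes. Mki67, which encodes the Ki-67 proliferation antigen that coats them, stood at 133 CPM in control, 149 with BPA, 196 with DMBA and 182 with both. Top2a, the topoisomerase that untangles sister chromatids, stood at 119.5, 131, 184 and 178 CPM. These abundant genes rose by the modest amounts of 0.43 for Mki67 (adjusted p = 0.028) and 0.53 for Top2a (adjusted p = 0.011). Scaled by transcript length, the highest levels in control were those of Bub3 at 27.1 CPM per kb, Top2a at 22.9 and Anln at 21.6, and the lowest that of Cenpk at 0.78. Across the 46 genes the DMBA log2 change ran against log2 transcript length with r = -0.41 and against summed counts with r = -0.43, beside r = -0.24 and r = -0.22 over all genes. These r values are descriptions across genes of the same 4 libraries.

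**Figure D3:**
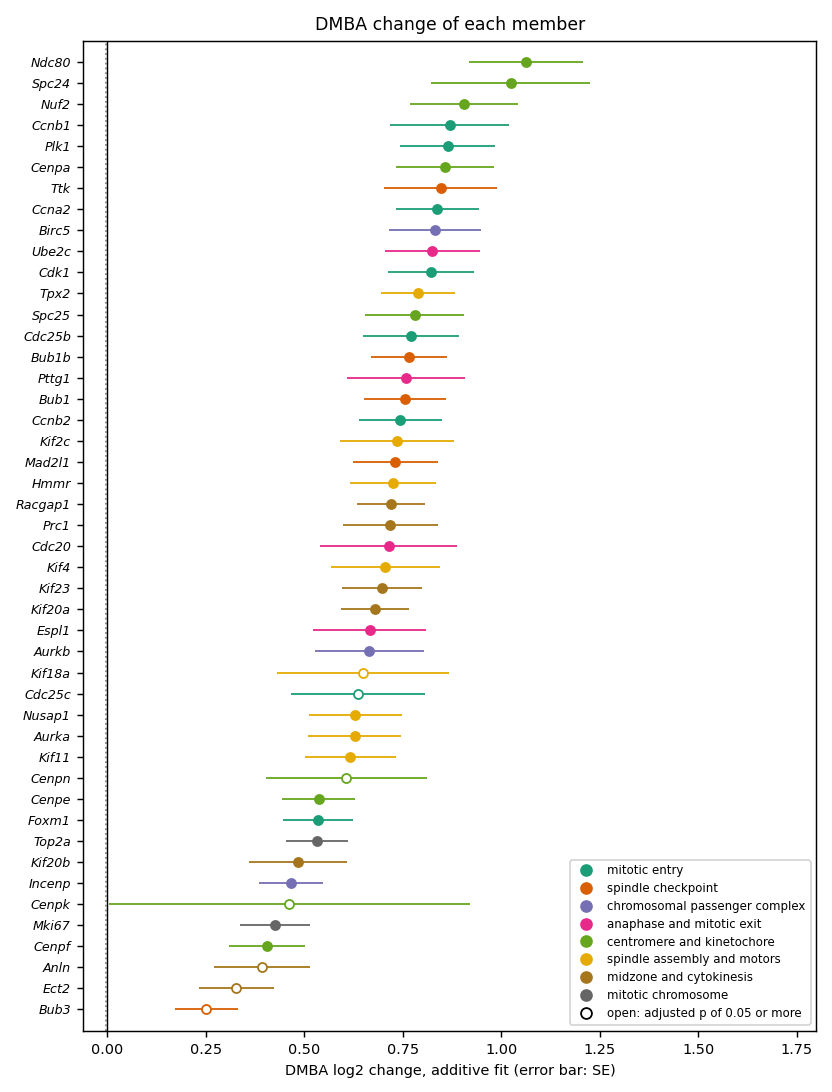
DMBA log2 change of each of the 46 genes in the additive fit, with the standard error derived from the F statistic as the bar. Colour gives the role and open points did not pass the adjusted threshold. The points run from 0.25 for Bub3 to 1.06 for Ndc80, all above 0 and above the dotted median of all genes, and the bar of Cenpk is the widest.

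Calls by DESeq2's Wald test on the same layout were fewer, 21 of 46 higher and 0 lower, beside 341 higher and 334 lower among all genes. With 3 libraries the additive model leaves no residual, so libraries were left out of a model with DMBA as its single term. On all 4 libraries that model called 42 of the 46, beside 1232 higher and 1378 lower among all genes. The model's median log2 change of the 46 was 0.72 there and 0.61 without control, beside -0.00 and 0.01 over all genes. Without the control library it called fewer, with BPA as the lone library without DMBA. Of the 39 additive calls it then missed Aurka, Aurkb, Cdc20, Cenpf, Espl1, Incenp, Kif20b, Kif2c, Kif4, Mki67, Nusap1, Pttg1 and Spc24.

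The 2 pairs that carry the DMBA comparison share no library, so they can be set side by side. For a single pair the ratio of CPM was taken with an exact Clopper-Pearson interval, which covers counting error only, and no p-value was computed. Between DMBA and control all 46 genes were higher, with a median log2 ratio of 0.87, and 40 were at least 1.5-fold higher (background 8.87% of all genes). After BPA, between BPA+DMBA and BPA, 45 were higher, with a median of 0.53, and 20 were at least 1.5-fold higher (background 6.79%). All 20 were also past 1.5-fold in the first pair, where 3.81% of all genes met that rule in both pairs. At 2-fold the counts were 8 (background 4.24%) and 1 (background 2.77%), the latter being Ndc80.

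The DMBA ratio was larger without BPA than after it for 43 of the 46 genes, against 7091 of all 13638 genes. Cdc20 was 2.09-fold higher in DMBA than in control (95% interval 1.88 to 2.33) and, after BPA, 1.26-fold higher with DMBA (1.10 to 1.44). Anln showed 1.57-fold (1.5 to 1.64) and 1.10-fold (1.03 to 1.16) in the same pairs. Ndc80, in contrast, showed 2.07-fold (1.75 to 2.49) and 2.08-fold (1.67 to 2.63), and Racgap1 1.62-fold (1.49 to 1.78) and 1.67-fold (1.49 to 1.87). Across the 46 genes the log2 ratios of the 2 pairs had r = 0.26, or r = 0.60 without Cenpk, beside r = 0.64 over all genes.

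**Figure D4:**
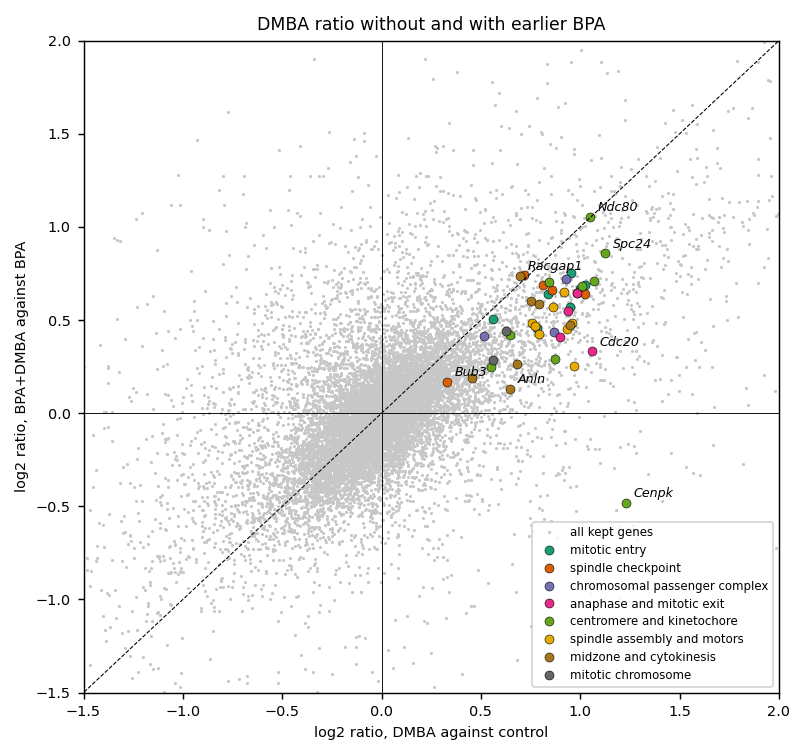
Log2 ratio of BPA+DMBA to BPA against that of DMBA to control, for all kept genes within the axes (grey) and the 46 genes (coloured by role), with equality dashed. The 46 genes lie to the right of 0, with 43 below the dashed line, Ndc80 and Racgap1 on or just above it and Cenpk far below.

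For BPA, the additive test called 0 of the 46 genes and 0 of all 13638 (background 0.0%) with edgeR's quasi-likelihood test. At an unadjusted p under 0.05 it held 0 of the 46, against 2.23% of all genes, and DESeq2's Wald test and edgeR's likelihood ratio test also called 0 of the 46. The median BPA log2 change was 0.02, from -0.20 for Kif18a and Spc24 to 0.25 for Cenpk. The next highest were Plk1 at 0.15, Aurkb at 0.13 and Bub1 at 0.09, and Ccnb1 was at -0.13. With 1 library per group this does not show that BPA left these genes unchanged.

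That near-zero mean joins small ratios of opposite sign. In BPA against control, 42 of the 46 genes were above 0, against 7107 of all 13638 genes, with a median log2 ratio of 0.16. The interval lay above equality for 18 (background 16.4% of all genes) and below it for 0 (background 12.8%). In BPA+DMBA against DMBA, a pair of other libraries, 42 were below 0, against 6844 of all genes, with a median of -0.15. There the interval lay below equality for 18 (background 15.1%) and above it for 0 (background 17.6%). Few of these ratios were large. At least 1.5-fold higher in BPA than in control was only Cenpk among the 46, at 2.16-fold (1.37 to 3.81; background 1.14%), and 0 were at least 1.5-fold lower in BPA+DMBA than in DMBA (background 1.85%).

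The departure from additivity is the log2 ratio of BPA+DMBA to DMBA minus that of BPA to control. The same value is the DMBA log2 ratio after BPA minus that without BPA. It therefore restates the comparison of the DMBA pairs above, and lay below 0 for the same 43 genes. Its median over the 46 genes was -0.30, against -0.01 over all genes, and the counting interval lay below 0 for 31 of 46 (background 17.0%) and above 0 for 0 (background 16.0%). The interval lay below 0 in all 8 genes of spindle assembly and all 4 of anaphase and exit, in both mitotic chromosome genes, in 6 of 9 of the kinetochore, 4 of 7 of the midzone, 4 of 8 of mitotic entry, 2 of 5 of the checkpoint and 1 of 3 of the passenger complex. The lowest values were -1.71 for Cenpk, which rests on 24 to 65 counts, -0.73 for Cdc20 and -0.71 for Kif18a. The highest were 0.04 for Racgap1, 0.03 for Mad2l1 and 0.00 for Ndc80. In 9 genes, Ccna2, Cdk1, Cdc20, Tpx2, Kif2c, Kif4, Prc1, Mki67 and Anln, the BPA ratio was above 1 without DMBA and below 1 with it, each with an interval excluding 1, against 3.84% of all genes in this order and 8.49% in either order. Because the 4 libraries leave no spread for this term, no test of it was possible.

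Fibroblast markers departed from additivity in the other direction in the same libraries. Their summed level was 9881 CPM in control and 7363 in BPA against 6080 in DMBA and 9955 in BPA+DMBA. The departure interval lay above 0 for 9 of 9 markers (background 16.0%). Not every pair ran opposite to the mitotic genes. In BPA+DMBA the summed fibroblast level was 1.35-fold that in BPA, close to the 1.36-fold of the 46 genes. A departure below 0 was not particular to the mitotic genes. The interval lay below 0 for 9 of 14 basal, 8 of 14 luminal, 4 of 8 endothelial and 3 of 9 keratinocyte markers (background 17.0%). It lay above 0 for 3, 2, 0 and 0 of them in the same order (background 16.0%). The part of these cell types in the departure of the mitotic genes was not tested.

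**Figure D5:**
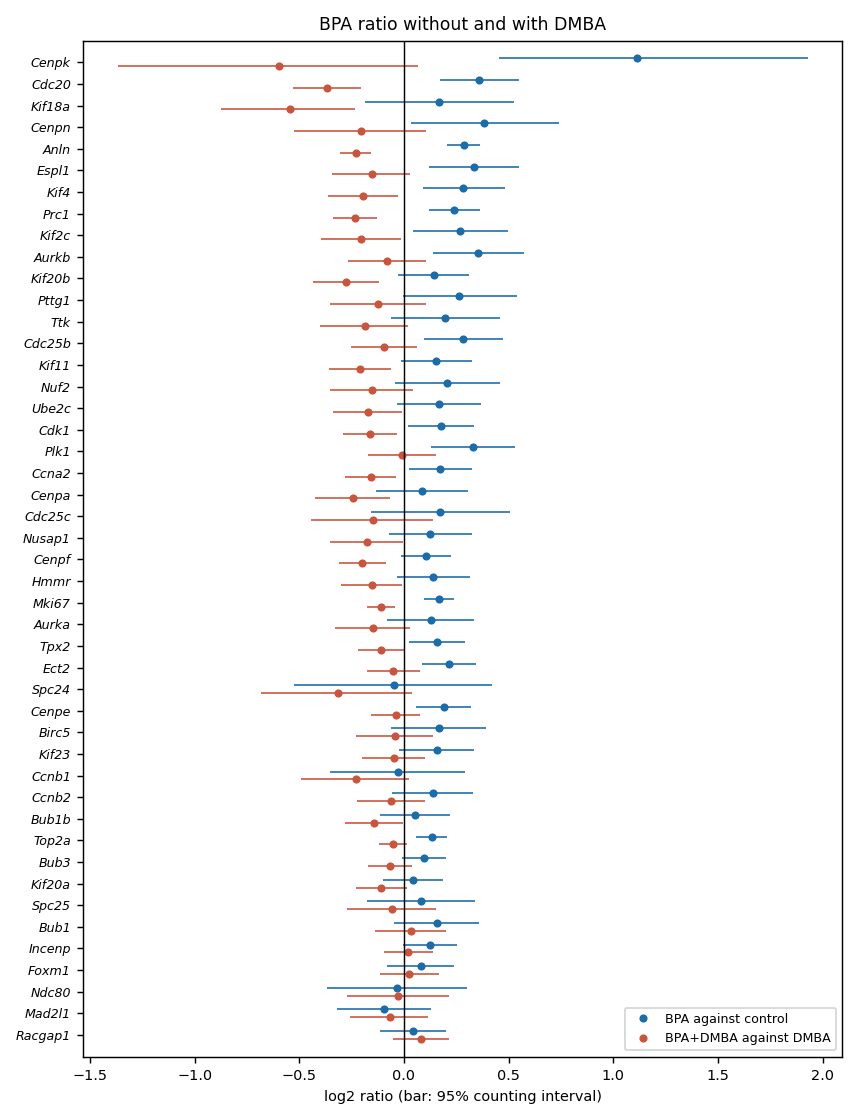
Log2 ratio of BPA to control (blue) and of BPA+DMBA to DMBA (red) for each of the 46 genes, with 95% counting intervals as bars, ordered by the difference between them. Blue points lie above 0 for 42 genes and red points below 0 for 42, and the 2 points meet for Ndc80, Mad2l1 and Racgap1 at the foot.

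Other genes of the cell cycle were read from lists chosen by function. Of 75 further mitotic genes 40 rose with DMBA, 0 fell and 35 did not pass, with a median log2 change of 0.58, where 6.67% of all genes rose and 7.72% fell. DESeq2's Wald test called 10 of them, beside 341 higher and 334 lower among all genes. The single-term model called 49 on 4 libraries, beside 1232 higher and 1378 lower among all genes, and fewer without control. The highest were Sapcd2 (listed as 2010317E24Rik) at 1.27, Fam64a at 1.07 and Cenpp at 1.02, of which Cenpp did not pass (adjusted p = 0.053). Wee1, the kinase that restrains Cdk1, had a change of -0.01 and the centromere gene Cenpc1 -0.08. Of 45 DNA replication genes 24 rose and 0 fell, with a median of 0.49. On the same backgrounds DESeq2 called 5, and the single-term model 30 on 4 libraries and fewer without control. The 24 included Rrm2, a subunit of ribonucleotide reductase, at 0.89 and the primase gene Prim1 at 0.85. Gins1 had 0.93 without passing (adjusted p = 0.078).

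Chromosome and motor genes that are also used outside mitosis had smaller median changes. In condensin and cohesin 6 of 16 rose and 0 fell, led by the condensin subunits Ncaph at 0.66, Ncapg at 0.54 and Ncapg2 at 0.46, with a list median of 0.08. Of the 14 core subunits of the APC/C, the ligase that Cdc20 and Ube2c serve, Anapc11 alone passed, at 0.43, and the list median was 0.10. Interphase kinesins and dynein had 2 of 24 higher and 2 lower, with a median of -0.12; these and the APC/C counts are near the shares over all genes, 6.67% higher and 7.72% lower. CHR words were present in 15.4% of 13 APC/C promoters and in 5.56% of 18 promoters of interphase motors, against 61.0% of 59 promoters of the further mitotic genes. Within the 46 genes, the 29 with a CHR word had a median DMBA change of 0.72 and the 9 matched genes without one had 0.73.

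Of 14 kept genes tied to cells leaving the cycle, Cdkn1a, which encodes the p21 inhibitor, rose and Rb1 fell, and 12 did not pass. As counts, 1 higher and 1 lower of 14 are near the shares over all genes, 6.67% higher and 7.72% lower. Cdkn1a stood at 186 CPM in control, 207 with BPA, 316 with DMBA and 282 with both. Rb1, the retinoblastoma repressor of E2F targets, stood at 116, 91.3, 49.7 and 56.5 CPM, and fell by 0.96 on the log2 scale. Both DMBA libraries were apart from the others in each gene, in opposite directions.

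Cell type markers differed between the same libraries. Beside the counts below, the shares over all genes were 6.67% higher and 7.72% lower with DMBA. Basal markers were present, as the label states, and 8 of 14 rose with DMBA and 0 fell, their summed level being 4301 CPM in control and 4447 in BPA against 6006 in DMBA and 5845 in BPA+DMBA. Krt5, a basal keratin, had 118, 149, 559 and 468 CPM. Luminal markers were also present in all 4 libraries, with 1 of 14 higher, near the share over all genes, and 4 lower. Per length the luminal keratin gene Krt18 was at 714 CPM per kb in control. The basal Krt14 was at 176 and the collagen gene Col1a1 at 559 CPM per kb. Keratinocyte markers rose in 7 of 9 kept genes, from a summed 25.4 CPM in control and 31.2 in BPA to 119 in DMBA and 78.2 in BPA+DMBA. Krtdap, Lor, Cnfn, Dsg1a and Dsg1b reached the minimum count for testing only in libraries with DMBA. Without DMBA their counts lay between 2 (Dsg1a) and 17 (Krtdap). Their being kept depended on higher DMBA counts, so the 7 of 9 was partly set by the filter. Sprr1a, Sprr1b, Ivl and Krt10 reached the minimum in every library. Endothelial markers rose in 5 of 8, from a summed 32.8 and 45.9 CPM to 86.2 and 85.8 in the same order. Of 3 kept immune markers Lyz2 rose (log2 change 2.48, adjusted p = 0.018) and 0 fell. Lyz2 was counted 8 and 7 times in the control and BPA libraries, against 31 and 44 times in DMBA and BPA+DMBA. It too was kept only through the DMBA libraries, so its being tested depended on the rise. The listed immune markers, kept or not, summed to between 23.6 and 29.0 CPM. Most of that was Cd68, with a log2 change of -0.04. Ptprc and Cd3e had at most 5 counts in any library. The part of these cell types in the DMBA change of the mitotic genes was not tested.

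Counts over all genes totalled 15672532 to 30627055 per library, the least in BPA+DMBA and the most in control, and 22.9% to 25.6% of deposited counts were reads aligned to more than 1 place, the larger shares being in the DMBA libraries. Opposite-strand exons of another gene covered 22.8% of Ube2c, 15.1% of Kif4, 12.7% of Cdc25c, 12.5% of Ccna2 and 11.1% of Prc1. How far this touches their counts was not tested.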

How the data were processed

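Raw counts of reads by gene, as the authors deposited them for 4 libraries, were used unchanged. CASAVA 1.8.2, HTSeq and DESeq appear in the submitters' processing notes with build mm9. The sources used here do not state their roles, the aligner or the handling of strand. Summary entries (reads outside genes, 11.3% to 13.5%, and on several genes, 0.435% to 0.449%) stayed out of library sizes and tests. The 13638 genes with at least 20 counts in 1 library were scaled by TMM (factors 0.969 to 1.05) and fitted additively with edgeR 4.0.16 in R 4.3.3, with Benjamini-Hochberg adjustment at 0.05, on 1 residual degree of freedom. Such p-values set each change against the BPA by DMBA interaction, with each gene's spread drawn toward that of all genes. They hold no spread between replicates of a group. Pair ratios used a prior count of 2 and 95% Clopper-Pearson intervals; departures had Wald counting intervals. Calls were made only across all genes, and the scripts were tested on simulated data. Transcript lengths and overlaps came from GENCODE and promoters from RefSeq GRCm38.p6, while the counts used mm9 names; 7 listed symbols were matched by older names. Members, lists and tests were chosen with earlier results of these data known. Values in full were given for 15 set genes and those with extreme DMBA, BPA or departure values. Alternatives were other scalings, filters and prior counts, DESeq2 1.42.0, a likelihood ratio test, thinning to the smallest library, length correction, a single-term model, and leaving out each library from it. A gene counted 0 times could hold up to 3 counts.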

Additional observations from a re-analysis of the deposited data

Results flagged for a closer look

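For 9 of the 46 genes the BPA ratio lay above 1 without DMBA and below 1 with it, with both counting intervals excluding 1. That is 19.6% of the genes, against 8.49% of all genes with such opposite intervals in either order and 3.84% in this order. The departure was -0.33 for Ccna2, -0.34 for Cdk1, -0.73 for Cdc20, -0.27 for Tpx2, -0.47 for Kif2c, -0.48 for Kif4, -0.48 for Prc1, -0.28 for Mki67 and -0.52 for Anln on the log2 scale. The difference itself was not tested, since each group is 1 library.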

How the results depend on the processing

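Among the 46 genes the count that rose with DMBA was 39 and stayed between 31 and 43 under every alternative but 2 kinds. Over all genes 909 were higher, and 489 to 1260 under the same alternatives. The count of the 46 was 21 with DESeq2's Wald test, beside 341 over all genes. A model with DMBA as the single term gave 42 on all 4 libraries, beside 1232 over all genes. It was used because the additive one has no residual on 3 libraries. With a library left out from it, the lone sample of an arm is assumed to vary like the others. The count of the 46 then left the range above without control or without BPA+DMBA. Their median log2 change with a library left out was 0.61 to 0.82. The 21 genes were all among the 39. Calls were lost most often for Cdc20 and Kif20b. The DMBA change kept its sign in every setting except for Cenpk without control, at -0.11. BPA changes, close to 0, took the other sign in 0 to 28 of the 46 genes depending on the setting, and 0 of these were called. For the further mitotic genes the count of 40 became 24 with at least 100 counts, 10 with DESeq2, 20 with thinned counts and 18 with the length trend removed; the single-term model gave 49, and 15 to 46 with a library left out. For DNA replication the count of 24 became 5 with DESeq2 and 14 with the length trend removed; the single-term model gave 30, and 10 to 28 with a library left out. Scaling by total counts alone moved the median log2 ratio of DMBA to control to 0.10 over all genes and 0.98 over the 46, turned the split of all genes called for DMBA from 909 higher and 1053 lower to 889 and 431, gave summed levels of 1179, 1331, 2123 and 1891 CPM in control, BPA, DMBA and BPA+DMBA, and put 1 gene, Kif18a, rather than 0, past 1.5-fold lower in BPA+DMBA against DMBA. CHR words fell to 34.2% of the matched promoters when only the upstream part of the window was read, since most lie after the start. The cause of the other shifts was not tested. No paired analysis was possible because each group is 1 library and the labels give no replicate numbers. Depth limits the genes with few counts, Cenpk above all.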
